A study of Mus musculus with 30 samples.

Results

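C2C12-pMirn378 cells were followed from d3 to d6 of treatment with bone morphogenetic protein 2 (BMP2), and the 3 arrays of d6 were compared with the 3 arrays of d3. These are 6 of the 30 arrays of the study, which were taken by their labels. Of the 45101 probe sets of the array, the 34958 that carry a single gene symbol were described, and they name 18194 genes. C2C12 is a mouse myoblast line, derived from regenerating muscle. The C2C12-pMirn378 line carries a lentiviral construct with the precursor of the microRNA miR-378 by the study's methods, and the control line C2C12-pMirn0 carries the parent vector. The design text deposited with the arrays names the lines and the constructs in the opposite order, and the line names and the methods were followed here. Both constructs also carry the marker copGFP, and each line is the pool of copGFP-positive cells sorted after transduction, not a clone. On d0 the cells went into low-serum medium that held 300 ng/ml human recombinant BMP2 or none (untreated), and the arrays of each group come from triplicate experiments with the same transduced line. The p-values thus measure the spread between these experiments, and not between independently made lines. Used for comparison were control cells at d3 and d6 with BMP2, C2C12-pMirn378 cells at d3 and d6 untreated, and both lines at d0, with 3 arrays each.

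Low-serum medium lets C2C12 myoblasts leave the cell cycle and fuse into myotubes under the control of myogenin and related factors. BMP2 signals through serine/threonine kinase receptors and the Smad proteins, blocks this program and turns the cells towards the osteoblast lineage. That lineage is marked by osterix (*Sp7*), alkaline phosphatase (*Alpl*) and type I collagen (*Col1a1*). A microRNA lowers the stability or translation of mRNAs that pair with its seed, and miR-378 lies in an intron of *Ppargc1b*, a coactivator of mitochondrial genes. The arrays read polyadenylated transcripts, so the level of mature miR-378 was not measured here. By real-time PCR, the study found more of it in C2C12-pMirn378 than in control cells with BMP2. The fold excess over control cells was smaller at d6 than at d3.

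Values are linear intensities as deposited, and the average expression value (AEV) below is the mean of 3 arrays ± SD (n = 3). A probe set was called higher or lower at d6 where limma, fitted to the log2 values of all 30 arrays, put the adjusted p below 0.005 and the log2 ratio of d6 over d3 beyond 0.6 in either direction. In C2C12-pMirn378 cells with BMP2, 977 of the 34958 probe sets were higher at d6 than at d3 (2.79%) and 1343 were lower (3.84%), and these belong to 692 and 1012 genes. With each gene read from its brightest probe set, 543 of 18194 genes rose (2.98%) and 883 fell (4.85%). Those are the shares against which the gene lists below can be read. The median log2 ratio over the 18194 genes was -0.0585. Of the genes that rose, 9 were dim at both days, which means that both AEVs lay below 76.5, the median of all values, and of those that fell 37 were. Bright probe sets, whose mean reached that level, had a median SD of 0.133 (log2) among the 3 arrays of a day, and dim ones a median SD of 0.707. With only the 6 arrays of the comparison in the fit, 35 of all 45101 probe sets passed as higher and 140 as lower, against 1089 and 1482 with all 30 arrays. In the paragraphs below, the number of alternatives in which a call was lost leaves out this fit. No date of scanning and no batch is given in the labels. RNA came from whole cultures, so fewer cells of a type and less RNA per cell cannot be told apart.

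**Figure D1:**
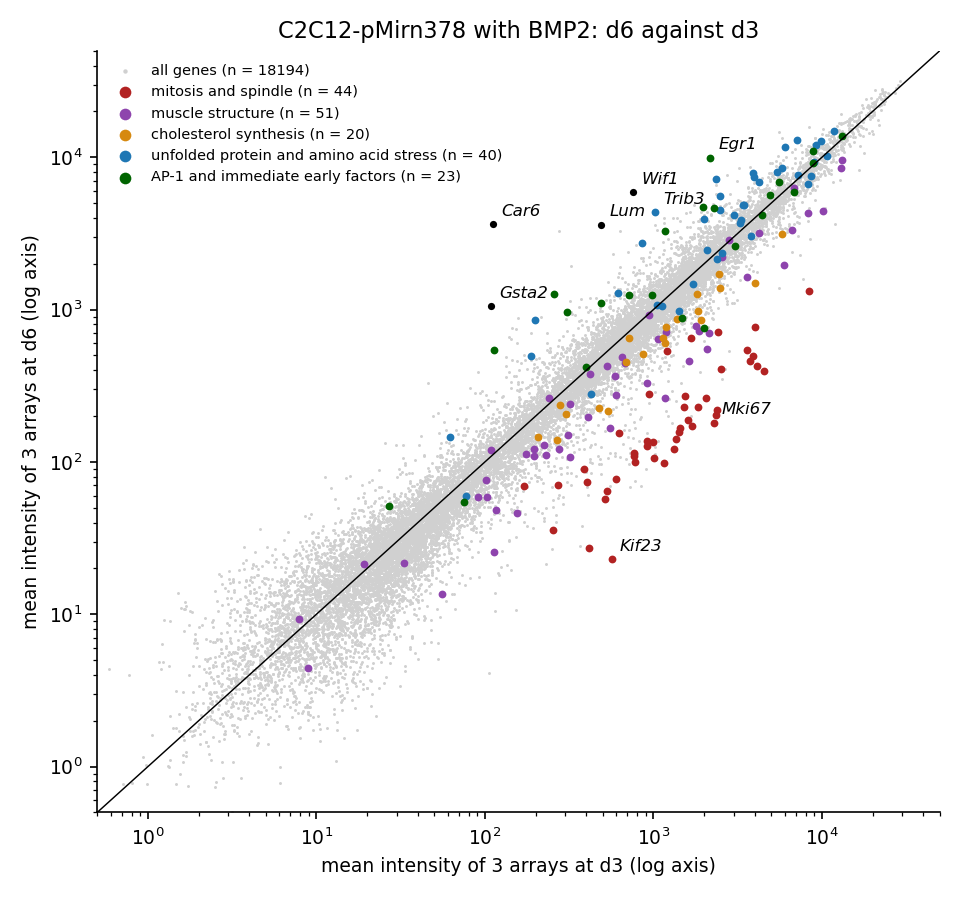
AEV of each of 18194 genes in C2C12-pMirn378 cells with BMP2 at d3 (horizontal, log axis) and at d6 (vertical, log axis), with the line of equal values and 5 gene lists in colour. All 44 genes of mitosis lie below the line, and *Car6*, *Gsta2*, *Wif1* and *Lum* lie far above it.

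The most uniform change was in genes of mitosis and the spindle, which build and control the apparatus that separates the chromosomes. All 44 measured members fell, with log2 ratios from -4.73 to -1.16 and a median of -2.97. The median intensity over the list was 2844, 2886 and 2778 in the 3 arrays at d0, 1288, 1318 and 1353 at d3 and 163, 178 and 167 at d6. The level at d3 thus lay between that of growing cells and that of d6, and the days did not overlap. In control cells with BMP2 the same median was already 333, 345 and 390.4 at d3, and it was 167, 197 and 173 at d6. In untreated C2C12-pMirn378 cells it was 468, 361 and 419 at d3 and 385, 355 and 449 at d6, and these days overlapped.

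*Birc5*, which encodes survivin, a subunit of the chromosomal passenger complex, read 2321, 2348 and 2397 at d3 and 194, 212 and 205 at d6. The 3 values of each day lay close together, and the days were an order apart, with a fall of 11.6-fold (log2 ratio -3.53, SE 0.11, adjusted p = 2.11e-15). *Kif23*, the gene of a kinesin of the central spindle, read 582, 534 and 576 at d3 and 36.4, 17.0 and 15.6 at d6. It had the most negative log2 ratio among the genes named by the rule for large changes (log2 ratio -4.73, SE 0.31, adjusted p = 1.95e-10). Since its d6 values are near background, the log2 ratio is -3.50 where values under 50 are set to 50. *Top2a*, for the topoisomerase that untangles sister chromatids, read 3883, 3875 and 3909 at d3 and 529, 500.1 and 456 at d6, again without overlap (log2 ratio -2.98, SE 0.092, adjusted p = 2.11e-15). The proliferation marker *Mki67* went from 2273 ± 130 at d3 to 181 ± 11.5 at d6, and *Cdc20*, an activator of the anaphase-promoting complex, from 4128 ± 116 at d3 to 425 ± 39.5 at d6. *Ube2c*, the ubiquitin-conjugating enzyme of that complex, went from 4541 ± 346 at d3 to 395 ± 34.2 at d6 (log2 ratio -3.52, SE 0.15, adjusted p = 2.17e-13). *Cdk1*, the kinase that drives entry into mitosis, read 4015, 4041 and 3969 at d3 and 834, 756 and 723 at d6, so that every d3 value was above every d6 value (log2 ratio -2.38, SE 0.088, adjusted p = 1.89e-14). In the fit with only the 6 arrays, 32 of the 44 genes were called, and 43 with each array left out in turn.

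Promoters of mitotic genes are known for a CHR element (cell cycle genes homology region), the site of the DREAM and MuvB complexes, next to CCAAT boxes, the site of NF-Y. For 36 of the 44 genes RefSeq (GRCm38.p6) gave 40 promoter windows, from 250 bases before to 50 after a start. TTTGAA or TTCGAA was found on either strand in 72.5% of them, against 19.2% of all 32851 windows, and CCAAT in 75%, against 37.4%. Both were found in 65%, against 7.52%. All 36 genes fell, those with and those without either motif. On the DNA replication list, whose members fell less uniformly, the shares were 20% and 52.5% of 40 windows. Shown here are 4 windows of genes that fell, with the CHR and CCAAT letters of either strand in capitals. The letters TTCGAA read the same on both strands and count as 1 match, and a CCAAT can overlap its complement ATTGG, as in *Ube2c*.
*Kif23* lies at chr9:61946750-61947049 on the minus strand, *Cdc20* at chr4:118437294-118437593 on the minus strand, *Ube2c* at chr2:164769679-164769978 on the plus strand and *Top2a* at chr11:99024140-99024439 on the minus strand.
Kif23: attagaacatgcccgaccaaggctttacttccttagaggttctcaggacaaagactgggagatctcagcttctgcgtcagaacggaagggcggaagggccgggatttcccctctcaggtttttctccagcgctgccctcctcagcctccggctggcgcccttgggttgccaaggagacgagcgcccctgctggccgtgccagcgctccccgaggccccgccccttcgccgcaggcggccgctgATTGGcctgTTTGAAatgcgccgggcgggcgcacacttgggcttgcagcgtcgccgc
Cdc20: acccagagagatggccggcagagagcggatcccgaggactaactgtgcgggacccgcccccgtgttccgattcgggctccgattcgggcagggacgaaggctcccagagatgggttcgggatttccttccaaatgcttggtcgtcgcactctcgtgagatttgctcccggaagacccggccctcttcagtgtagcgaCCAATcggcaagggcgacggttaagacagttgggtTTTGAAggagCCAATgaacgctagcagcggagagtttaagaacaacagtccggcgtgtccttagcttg
Ube2c: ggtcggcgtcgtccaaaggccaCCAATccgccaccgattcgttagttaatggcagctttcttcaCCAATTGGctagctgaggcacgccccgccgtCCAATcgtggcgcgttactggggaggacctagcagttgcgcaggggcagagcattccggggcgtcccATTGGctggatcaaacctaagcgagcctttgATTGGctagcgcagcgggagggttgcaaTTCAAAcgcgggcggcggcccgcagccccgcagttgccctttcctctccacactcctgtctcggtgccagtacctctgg
Top2a: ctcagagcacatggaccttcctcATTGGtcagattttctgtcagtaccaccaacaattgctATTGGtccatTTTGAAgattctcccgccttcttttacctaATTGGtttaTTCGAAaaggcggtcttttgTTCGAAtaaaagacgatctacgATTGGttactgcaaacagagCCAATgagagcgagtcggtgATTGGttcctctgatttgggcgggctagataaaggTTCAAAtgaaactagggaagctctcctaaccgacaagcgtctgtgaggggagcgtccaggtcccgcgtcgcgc
The *Kif23* window holds 1 CHR match and 1 CCAAT match close to its 3′ end, and that of *Top2a* holds 4 and 6. A match is only a match of letters, and binding was not measured.

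Of 40 genes of DNA replication and nucleotide synthesis, 29 fell and 0 rose, with a median log2 ratio of -1.09. *Tk1*, for the thymidine kinase of the salvage pathway, read 849, 925 and 954 at d3 and 92.7, 88.2 and 89.2 at d6, a fall of 10.1-fold (log2 ratio -3.34, SE 0.12, adjusted p = 1.95e-14). The d3 values were all above the d6 values, and at d0 the AEV had been 2980 ± 124. *Rrm2*, for the small subunit of ribonucleotide reductase, went from 11990 ± 775 at d3 to 3643 ± 308 at d6, and *Mcm5*, a subunit of the replicative helicase, from 1287 ± 173 at d3 to 292 ± 61.1 at d6. Several of the probe sets named, those of *Cdc20*, *Rrm2*, *Mcm5*, *Trib3*, *Shmt2*, *Hsd17b7*, *Ndrg1* and *Ccn1*, end in _x_at and can take signal from related transcripts. The other called members ran from *Brca1* at -2.31 to *Mcm7* at -0.65, which was not called without replicate 3 of d6 (-0.55). With single arrays left out, *Mcm2* and *Orc1* lost their calls in most cases and *Mcm4* and *Mcm10* in several (adjusted p from 0.00518 to 0.0196). *Orc1* also lost its call with quantile normalization. *Pcna*, the sliding clamp, had an adjusted p of 0.00222 but a log2 ratio of -0.39, short of the minimum. The median intensity over the list was 630.3, 631 and 757 at d3 and 289.5, 339 and 301 at d6, and in control cells 429, 407 and 378 and 349, 339.7 and 341. In the fit with only the 6 arrays, 7 members were called.

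Among 22 CDK inhibitors, D cyclins and pocket proteins, the brakes and triggers of the G1 phase, 7 fell and 3 rose. Of the 4 INK4 inhibitors of CDK4 and CDK6, *Cdkn2c* and *Cdkn2d* fell and *Cdkn2a* and *Cdkn2b*, both dim, were not called, with *Cdkn2c* reading 1224, 1375 and 1327 at d3 and 558, 459 and 487 at d6 (log2 ratio -1.39, SE 0.071, adjusted p = 3.26e-12) and *Cdkn2d* at a log2 ratio of -1.30. *Ccng2*, for cyclin G2, went from 2227 ± 208 at d3 to 880 ± 85.2 at d6, and the retinoblastoma relative *Rbl1* fell by 1.16 on the log2 scale. The inhibitor gene *Cdkn1c* fell between dim AEVs, from 65.1 to 13.7, and its call was lost with a floor of 50 (log2 ratio -0.49) and without replicates 2 and 3 of d3 or replicate 2 of d6 (adjusted p from 0.00625 to 0.00897). *Gadd45a*, a gene induced by DNA damage and stress, rose instead and read 2541, 2232 and 2243 at d3 and 6599, 7666 and 5586 at d6 (log2 ratio 1.49, SE 0.10, adjusted p = 1.17e-10). The D cyclins differed among themselves, since *Ccnd2* went from 766 ± 121 at d3 to 1900 ± 125 at d6 and *Ccnd1* rose by 0.68, whereas *Ccnd3* fell by 0.70 on the log2 scale. *Cdkn1a*, for the inhibitor p21, had an AEV that went from 5845 ± 433 at d3 to 7006 ± 225 at d6 and was not called (log2 ratio 0.26, SE 0.079, adjusted p = 0.0215). Without the array of replicate 2 at d6 the call of *Ccnd1* was lost, at a log2 ratio of 0.58.

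Immediate early genes, which encode transcription factors that respond within minutes to growth factors and stress, included the Egr family among the strongest rises. Of 23 AP-1 and immediate early factors 9 rose and 2 fell, with a median log2 ratio of 0.32. *Egr1* read 2497, 1946 and 2073 at d3 and 10720, 9334 and 9765 at d6, a rise of 4.60-fold (log2 ratio 2.20, SE 0.11, adjusted p = 3.93e-12). The days did not overlap, and the d0 AEV of 8010 ± 176 lay between those of the 2 days, nearer to that of d6. *Egr3* read 227, 245 and 300.1 at d3 and 1215, 1316 and 1282 at d6 (log2 ratio 2.31, SE 0.10, adjusted p = 1.58e-13), and *Egr2*, a target of the same signals, read 125, 102 and 112 at d3 and 513, 586 and 528 at d6 (log2 ratio 2.27, SE 0.12, adjusted p = 3.93e-12). For both, every d6 value was above every d3 value. *Fos* went from 309 ± 21.4 at d3 to 961 ± 59.5 at d6 and *Myc*, the growth regulator, from 1977 ± 182 at d3 to 4685 ± 156 at d6 (log2 ratio 1.25, SE 0.081, adjusted p = 1.19e-10). *Ier2*, *Fosl1*, *Klf10* and *Nr4a1* rose by 1.47, 1.18, 1.03 and 0.81 on the log2 scale. Against the list, the nuclear receptor gene *Nr4a2* went from 1983 ± 333 at d3 to 758 ± 52.7 at d6 and *Klf2* from 1481 ± 119 at d3 to 886 ± 117 at d6, and both fell. Among feedback inhibitors of receptor kinases, *Spry1* read 149, 144 and 136 at d3 and 634, 697 and 598 at d6, with the days apart (log2 ratio 2.17, SE 0.11, adjusted p = 2.7e-12). The ERK phosphatase gene *Dusp6* also rose, from 419 ± 48.7 at d3 to 990.4 ± 86.7 at d6, whereas *Spry2* was not called (log2 ratio 0.12). *Spry4*, dim at d3, rose by 2.67 on the log2 scale, but its call was lost with a floor of 50 (log2 ratio 0.63). *Ereg*, for the EGF receptor ligand epiregulin, read 160, 151 and 162 at d3 and 856, 1011 and 763 at d6, and its days did not overlap (log2 ratio 2.47, SE 0.11, adjusted p = 4.55e-13).

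**Figure D2:**
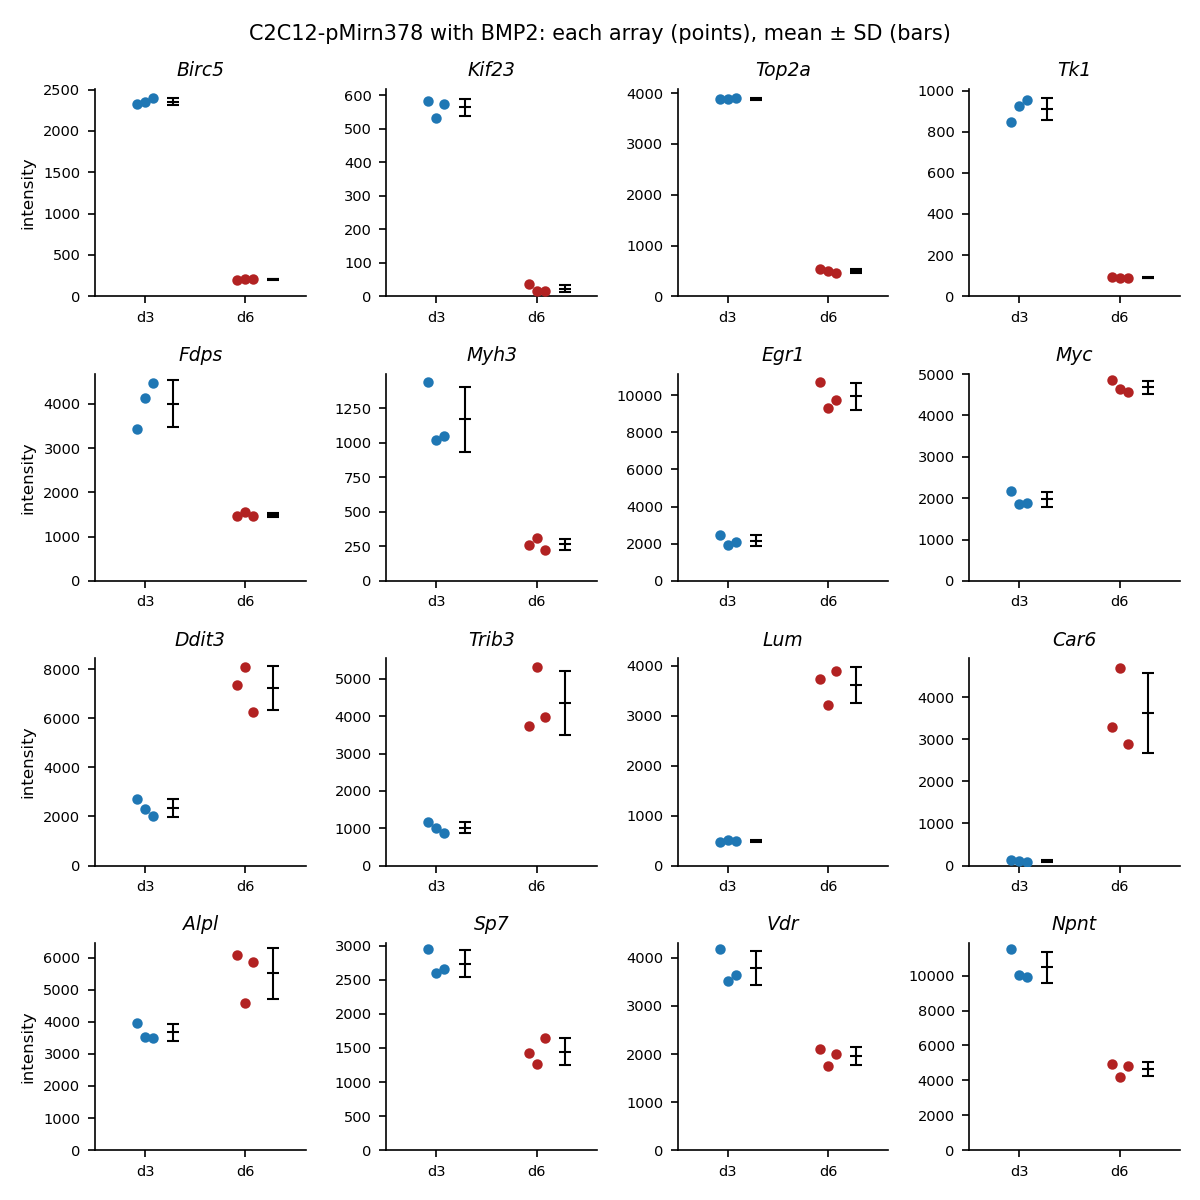
Intensity (linear axes from 0) of 16 genes in C2C12-pMirn378 cells with BMP2, with each of the 3 arrays at d3 and at d6 as a point and the mean ± SD beside them. *Birc5*, *Kif23*, *Top2a* and *Tk1* are near the base at d6, *Egr1*, *Trib3*, *Lum* and *Car6* are near it at d3, and in none of the 16 panels do the days overlap.

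The unfolded protein response and the amino acid response slow general translation and, through the factor ATF4, raise genes for amino acid supply and for the decision between recovery and death. Of 40 genes of these pathways, 14 rose and 1 fell, with a median log2 ratio of 0.44. The reticulum chaperone and folding genes on the list, among them *Hsp90b1*, *Calr*, *Canx*, *Pdia4* and *Hyou1*, were not called higher. The rises counted are thus those of other members. *Ddit3*, for the factor CHOP, read 2728, 2304 and 2004 at d3 and 7353, 8079 and 6276 at d6, and all d6 values were above those of d3 (log2 ratio 1.63, SE 0.11, adjusted p = 1.19e-10). *Trib3*, a pseudokinase gene downstream of CHOP, read 1169, 996 and 881 at d3 and 3747, 5330 and 3972 at d6 (log2 ratio 2.09, SE 0.20, adjusted p = 5.46e-08). *Atf3* read 226, 157 and 212 at d3 and 793, 1031 and 738 at d6, a rise of 4.31-fold with the days apart (log2 ratio 2.11, SE 0.13, adjusted p = 8.35e-11). The serine pathway genes *Phgdh*, *Psat1*, *Psph* and *Shmt2* rose by 0.94, 0.89, 1.17 and 0.97 on the log2 scale, and *Cth*, an enzyme of cysteine synthesis, by 1.68. *Asns*, for asparagine synthetase, went from 7145 ± 1140 at d3 to 13020 ± 515 at d6 (log2 ratio 0.88, SE 0.093, adjusted p = 2.59e-07). In contrast, the reticulum chaperone gene *Hspa5* went from 9190 ± 275 at d3 to 12080 ± 1880 at d6 and was not called (adjusted p = 0.00862). The member that fell, *Sdf2l1*, is also a reticulum protein gene, and its call was lost in 5 of the alternatives, among them those without replicate 2 of d3 and of d6 (log2 ratios -0.52 and -0.48). *Atf4* itself had a log2 ratio of 0.33, below the minimum. The median intensity of the list was 3011, 2991 and 3066 at d3 and 4381, 4757 and 4103 at d6, against 3947, 3981 and 3929 and 3738, 3969 and 3871 in control cells, whose days overlapped. The fit with only the 6 arrays called 0 members, and in it 10072 of all probe sets had an unadjusted p under 0.05.

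ATF4 and its partner C/EBP bind a composite element, searched for here as TGATGNAA on both strands. It was found in 8 of the 35 list genes with a RefSeq window (GRCm38.p6), in 21.1% of 38 windows against 3.97% of all windows. These are *Asns*, *Atf3*, *Chac1*, *Herpud1*, *Nupr1*, *Slc7a11*, *Trib3* and *Vldlr*, of which 4 rose, whereas 9 of the 27 genes without a match were called. Shown are the windows of *Atf3* (chr1:191183284-191183583 on the minus strand) and *Asns* (chr6:7693160-7693459 on the minus strand), a regulator and an enzyme that both rose, with the match in capitals.
Atf3: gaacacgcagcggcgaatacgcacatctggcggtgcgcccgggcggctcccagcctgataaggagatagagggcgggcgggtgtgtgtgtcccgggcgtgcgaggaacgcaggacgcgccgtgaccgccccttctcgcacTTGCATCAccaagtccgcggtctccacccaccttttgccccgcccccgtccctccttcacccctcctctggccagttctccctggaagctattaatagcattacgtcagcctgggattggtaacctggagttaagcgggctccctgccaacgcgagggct
Asns: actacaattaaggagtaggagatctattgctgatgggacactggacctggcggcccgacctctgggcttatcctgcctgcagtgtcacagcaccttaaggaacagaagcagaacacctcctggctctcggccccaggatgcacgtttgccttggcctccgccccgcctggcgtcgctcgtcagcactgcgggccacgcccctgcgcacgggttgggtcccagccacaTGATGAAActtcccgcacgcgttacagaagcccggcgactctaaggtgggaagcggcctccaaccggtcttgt
In *Atf3* the match is on the opposite strand, and in *Asns* on the strand shown. The call of *Slc7a11* was lost without replicate 1 of d3 and without each array of d6 in turn (adjusted p from 0.00521 to 0.0129), and *Chac1* had a log2 ratio of 0.51 and was not called.

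Genes of cholesterol synthesis, which are under the control of the factor SREBP2, went down together. All 20 measured members had a negative log2 ratio, 14 of them fell and the median was -0.77. *Fdps*, for farnesyl diphosphate synthase, read 3437, 4125 and 4464 at d3 and 1469, 1547 and 1469 at d6. The d3 arrays were all above the d6 arrays (log2 ratio -1.42, SE 0.12, adjusted p = 8.22e-09). *Hsd17b7* read 1771, 1987 and 1974 at d3 and 877, 821 and 857 at d6 (log2 ratio -1.17, SE 0.091, adjusted p = 2.53e-09), and *Nsdhl* read 1781, 1824 and 1926 at d3 and 999, 999.9 and 933 at d6 (log2 ratio -0.92, SE 0.075, adjusted p = 5.19e-09). Both encode enzymes of the late part of the pathway, and their days did not overlap. *Hmgcs1*, which acts early, and the regulator *Insig1* fell by 0.89 and 0.74 on the log2 scale, and *Srebf2*, the gene of SREBP2, fell by 0.81. The median intensity over the list was 1094, 1068 and 1072 at d0, 978, 1191 and 1162 at d3 and 707, 615 and 667 at d6. In control cells with BMP2 it was 672, 650.2 and 625 at d3 and 587, 607 and 581 at d6, so that the d6 levels of both lines were closer than those of d3. On the list of fatty acid synthesis, the desaturase gene *Fads2* and the regulator *Srebf1* fell and 12 of 14 genes were not called, and without replicate 2 of d6 the log2 ratio of *Srebf1* was -0.60, just short of the minimum. With only the 6 arrays of the comparison in the fit, 0 members of either list were called.

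CCAAT was found in 16 of the 16 genes of the cholesterol list with a RefSeq window (84.2% of 19 windows). The share of all windows was 37.4%, and 11 of the 16 genes were called lower. The sterol element searched for as TCACNCCAC was found in 1, *Hmgcs1* (5.26%, against 1.24% of all windows). Shown are the windows of *Hsd17b7* (chr1:169969156-169969455 on the minus strand) and *Nsdhl* (chrX:72918271-72918570 on the plus strand), again of GRCm38.p6 and with CCAAT of either strand in capitals.
Hsd17b7: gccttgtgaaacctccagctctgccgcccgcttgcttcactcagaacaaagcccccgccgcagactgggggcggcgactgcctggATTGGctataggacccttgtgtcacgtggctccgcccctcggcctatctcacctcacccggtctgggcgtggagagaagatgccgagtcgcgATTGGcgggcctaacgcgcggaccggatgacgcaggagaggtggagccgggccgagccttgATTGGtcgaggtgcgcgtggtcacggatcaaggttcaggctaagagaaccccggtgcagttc
Nsdhl: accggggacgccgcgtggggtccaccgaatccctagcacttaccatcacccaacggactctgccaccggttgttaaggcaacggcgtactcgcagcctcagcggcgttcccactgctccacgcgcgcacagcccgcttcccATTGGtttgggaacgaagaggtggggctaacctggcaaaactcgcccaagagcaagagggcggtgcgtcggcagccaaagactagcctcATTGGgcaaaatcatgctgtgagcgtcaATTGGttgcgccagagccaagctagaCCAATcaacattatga
These hold 3 and 4 such matches.

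**Figure D3:**
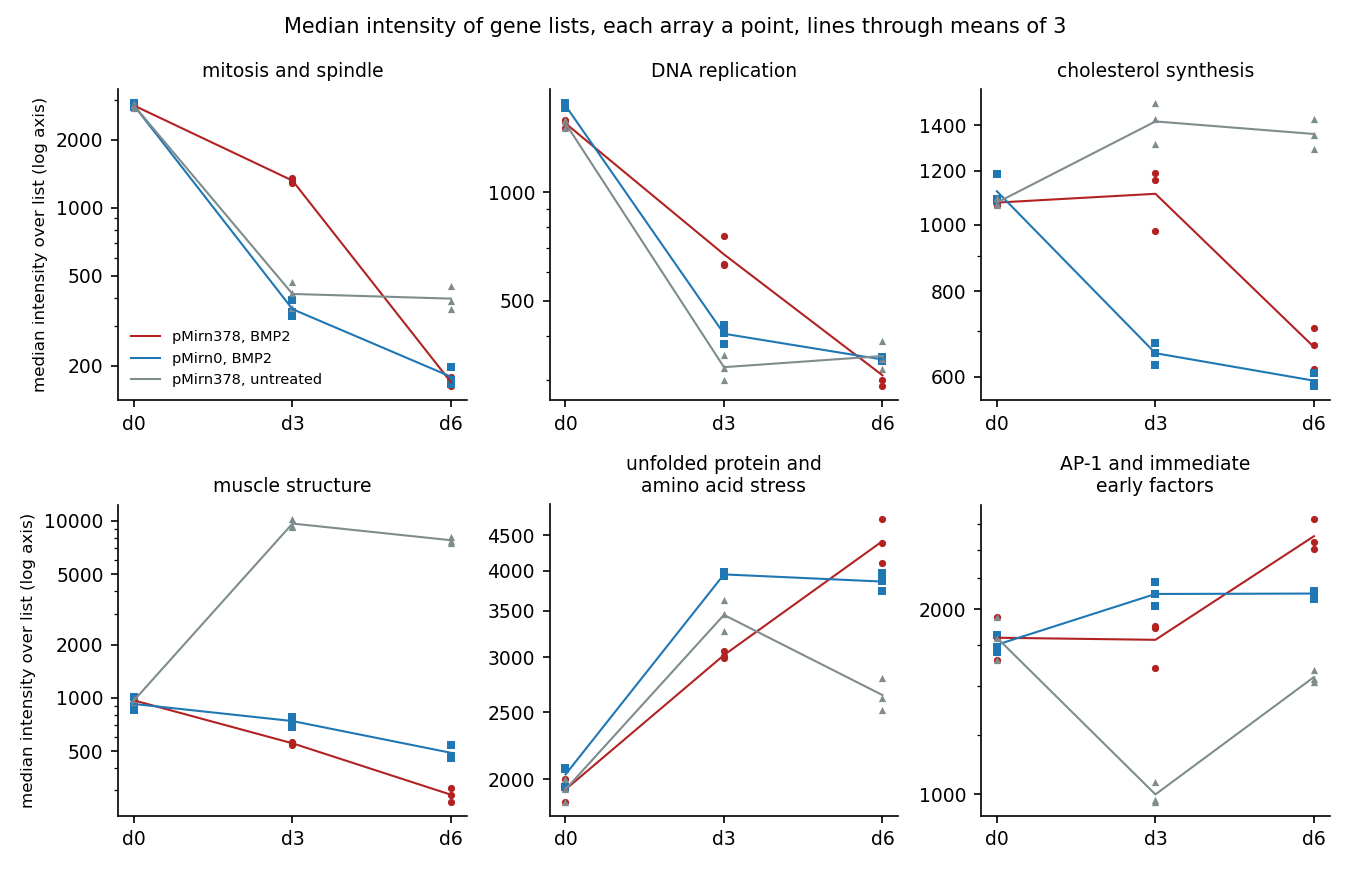
Median intensity over the members of 6 gene lists (log axes) at d0, d3 and d6, with each array as a point and lines through the means of 3 arrays for C2C12-pMirn378 with BMP2, C2C12-pMirn0 with BMP2 and C2C12-pMirn378 untreated. For mitosis, C2C12-pMirn378 cells with BMP2 stand between 1288 and 1353 at d3, above both other arms, and between 163 and 178 at d6.

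Several of the largest single rises were in genes for secreted or membrane proteins. *Car6*, for a secreted carbonic anhydrase, read 139.8, 109 and 85.1 at d3 and 3291, 4694 and 2890 at d6. This rise of 32.5-fold was the largest by the rule, and the days were far apart (log2 ratio 5.02, SE 0.30, adjusted p = 3e-11). *Scara5*, for a scavenger receptor that takes up ferritin, read 298, 269 and 256 at d3 and 3443, 3550 and 2793 at d6 (log2 ratio 3.57, SE 0.51, adjusted p = 1.76e-05). *Gsta2*, for a glutathione transferase, read 118, 109 and 99.5 at d3 and 932, 1406 and 824 at d6 (log2 ratio 3.24, SE 0.16, adjusted p = 1.3e-12), and the spread among its d6 arrays was wide but above all d3 arrays. *Wif1*, for a secreted inhibitor of Wnt ligands, read 647, 771 and 853 at d3 and 5483, 5755 and 6454 at d6 (log2 ratio 2.97, SE 0.50, adjusted p = 0.000143). *Lum*, for lumican, a small leucine-rich proteoglycan of collagen fibrils, read 473, 514 and 483 at d3 and 3725, 3204 and 3901 at d6 (log2 ratio 2.88, SE 0.22, adjusted p = 2.28e-09). Their AEVs at d0 were 8.40 ± 8.01 and 27.4 ± 3.99. *Cdsn*, for corneodesmosin, went from 634 ± 133 at d3 to 3269 ± 358 at d6, and *Ch25h*, for cholesterol 25-hydroxylase, from 139 ± 15.9 at d3 to 659 ± 29.6 at d6. The call of *P2rx3*, also among the 15 largest rises, was lost without each of the 6 arrays in turn (adjusted p from 0.0121 to 0.0208). In the other direction, the hair keratin gene *Krt33b* read 751, 715 and 714 at d3 and 44.6, 60.1 and 99.5 at d6 (log2 ratio -3.50, SE 0.44, adjusted p = 3.48e-06), and of the 15 genes with the largest falls by the rule it is the one that encodes a structural protein of hair.

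Most measured genes that mark the osteoblast lineage were not called between d3 and d6, and those that were called fell. *Runx2* and *Bglap*, markers of this lineage that the study also names, had no probe set with a single gene symbol. They were not analysed here. *Alpl* had an AEV of 48.2 ± 4.00 at d0 and read 3973, 3526 and 3501 at d3 and 6079, 4579 and 5847 at d6. The days did not overlap, but the change did not pass the test (log2 ratio 0.58, SE 0.21, adjusted p = 0.0621). *Sp7* read 2957, 2598 and 2662 at d3 and 1429, 1261 and 1650 at d6, and each d6 array was below each d3 array (log2 ratio -0.93, SE 0.20, adjusted p = 0.00186). Its d0 AEV was 113 ± 25.3, so that at d6 it was still far above d0. Its call was lost without each array but replicate 3 of d6 (adjusted p from 0.00569 to 0.0147). *Vdr*, the vitamin D receptor gene, read 4190, 3525 and 3645 at d3 and 2114, 1744 and 2005 at d6, also without overlap (log2 ratio -0.95, SE 0.10, adjusted p = 4.57e-07). These 2 were the called members among 17 osteoblast transcription factors, whose median log2 ratio was -0.081. *Dlx5* read 128, 170.2 and 179.7 at d3 and 140.3, 125 and 181 at d6, and the days overlapped (adjusted p = 0.959). *Col1a1* read 2606, 2396 and 2590 at d3 and 2753, 2305 and 3040 at d6, with overlap as well (adjusted p = 0.913). Of 18 genes of bone matrix and mineralization, *Mgp*, an inhibitor of calcification, was the only one called, going from 2110 ± 37.8 at d3 to 946 ± 51.1 at d6 (log2 ratio -1.16, SE 0.093, adjusted p = 4.36e-09). Other genes of the program were not called, among them *Fgfr3* (-0.061), *Pdgfra* (-0.58) and *Kazald1* (-0.20). In untreated cells *Alpl* stood at 56.7 ± 2.4 and 65.1 ± 0.958 and *Sp7* at 94.5 ± 30.8 and 87.8 ± 3.70 at d3 and d6.

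Matrix genes beyond bone changed singly. Of 33 collagen genes *Col6a2* rose by 0.71 and *P4ha3*, a prolyl hydroxylase gene, fell by 1.45 on the log2 scale. Of 12 small leucine-rich proteoglycans *Lum* and *Kera* rose, and *Kera* was below 10 in all arrays of both days and lost its call in 8 of the alternatives, among them without each array but replicate 2 of d6 (adjusted p from 0.00701 to 0.0291). *Npnt*, for nephronectin, an integrin ligand of the matrix, read 11510, 10050 and 9907 at d3 and 4918, 4215 and 4831 at d6, and its days were well apart (log2 ratio -1.17, SE 0.080, adjusted p = 3.1e-10). The matricellular gene *Thbs1* went from 16650 ± 1290 at d3 to 8239 ± 1010 at d6 (log2 ratio -1.02, SE 0.091, adjusted p = 2.15e-08), whereas *Ccn4* rose by 0.96 on the log2 scale. *Fbln5* rose by 1.09 on that scale, and its call was lost without each of the 6 arrays in turn (adjusted p from 0.00619 to 0.0155). *Ccn1* rose by 0.66 on its brightest probe set, but 2 of its 3 other probe sets were called in the other direction. Among 21 metalloproteinases and inhibitors, *Adamts1* and *Mmp11* rose and *Adamts4* fell.

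Of 34 genes of BMP signaling only *Chrdl1*, for a BMP antagonist, was called, from 15.8 ± 3.73 at d3 to 81.4 ± 16.2 at d6, and its log2 ratio of 2.37 is 0.68 with a floor of 50. The ligand gene *Bmp4* read 598, 649 and 478 at d3 and 573, 539 and 576 at d6, and the inhibitory Smad gene *Smad6* read 5589, 4816 and 4872 at d3 and 4572, 3994 and 4289 at d6. *Bmp4* overlapped between the days, *Smad6* did not, and neither was called (adjusted p = 0.975 and 0.293). Of 39 Wnt genes, *Wif1* and the receptor gene *Fzd4* rose and the receptor gene *Fzd2* and the ligand gene *Wnt9a* fell. In the Notch pathway, the ligand gene *Jag1* read 678, 626 and 609 at d3 and 2013, 2014 and 1702 at d6 (log2 ratio 1.58, SE 0.12, adjusted p = 2.06e-09). Its nuclear effector *Rbpj* read 2686, 2415 and 2377 at d3 and 4799, 5225 and 4292 at d6 (log2 ratio 0.93, SE 0.079, adjusted p = 9.29e-09), and for both genes the days did not overlap, while 14 of 16 members were not called. Among 32 genes of IGF, FGF and PDGF signaling 5 rose and 2 fell. The IGF-binding protein genes split, since *Igfbp4* went from 935 ± 115 at d3 to 2207 ± 281 at d6 and *Igfbp2* from 6645 ± 165 at d3 to 2398 ± 42.4 at d6. In the TGF-beta group of 17 genes, *Tgif1* and *Inhba* rose and *Inhbb* and *Tgfbr2* fell, the last 3 close to the minimum. *Inhba* lost its call with quantile normalization, without replicate 3 of d3 and without replicate 1 of d6 (log2 ratios from 0.57 to 0.6). *Tgfbr2* lost it in 5 of the alternatives, among them without replicate 1 of d3 and replicate 3 of d6 (-0.55 and -0.57). *Inhbb* lost it in 6, among them without replicates 1 and 2 of d3 and replicate 2 of d6 (-0.55, -0.58 and -0.47).

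Genes of the muscle sarcomere, membrane and fusion apparatus fell from levels that were already low with BMP2 at d3. Of 51 genes of muscle structure 32 fell and 0 rose, with a median log2 ratio of -0.82. Among those that fell, *Ckm*, *Actn2*, *Atp2a1*, *Casq2*, *Chrna1*, *Myom1* and *Tnni2* each lost the call with some array left out. The median intensity over the list was 563, 540.2 and 559 at d3 and 259.7, 309 and 283 at d6. In untreated cells of the same line it was 10310, 9427 and 9280 and 7525, 7712 and 8117. *Myh3*, the embryonic myosin heavy chain gene, read 1438, 1019 and 1048 at d3 and 259.7, 309 and 226 at d6, with all d6 values below those of d3 (log2 ratio -2.14, SE 0.12, adjusted p = 2.17e-11). *Ttn*, for titin, the spring of the sarcomere, went from 2080 ± 167 at d3 to 553 ± 19.8 at d6 (log2 ratio -1.91, SE 0.091, adjusted p = 9.68e-13). *Cacna1s*, for the calcium channel of the T-tubule, and *Ryr1*, for the calcium release channel, fell by 2.33 and 1.75 on the log2 scale. The d6 AEV of *Cacna1s* was 25.6, and with a floor of 50 its log2 ratio is -1.18. *Mymk*, which is needed for myoblast fusion, fell by 1.74. *Actn3* read 2650, 2642 and 2316 at d3 and 2249, 2047 and 2329 at d6 and was not called (adjusted p = 0.191). Of 18 myogenic regulators, 4 fell. *Myog*, for myogenin, read 1783, 1650 and 1646 at d3 and 761, 834 and 697 at d6 (log2 ratio -1.15, SE 0.075, adjusted p = 1.4e-10), without overlap, and the RNA-binding protein gene *Rbm24* went from 394 ± 13.3 at d3 to 142 ± 8.81 at d6 (log2 ratio -1.48, SE 0.078, adjusted p = 4.15e-12). The factors *Eya1* and *Six4* lost their calls in 2 and 7 of the alternatives, and the *Six4* arrays overlapped between the days. Without replicate 2 of d3 or of d6 both were lost (*Eya1* -0.60 and -0.56, *Six4* -0.55 and -0.57), and *Six4* also without replicate 3 of d3 and replicate 1 of d6 (-0.49 and -0.52). The fit with only the 6 arrays called 2 genes of muscle structure.

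Genes of inflammation rose in part. Of 26 chemokines and cytokines 9 rose and 1 fell, with a median log2 ratio of 0.28. *Cxcl1*, for a neutrophil attractant, read 543, 517 and 819.9 at d3 and 1697, 1759 and 1726 at d6 (log2 ratio 1.5, SE 0.14, adjusted p = 2.66e-08), and *Il6*, *Cxcl5* and *Ccl2* rose by 1.97, 1.43 and 1.37 on the log2 scale. *Csf1*, the growth factor gene of macrophages and osteoclast precursors, rose by 0.89. *Cxcl12*, the gene of a stromal chemokine, read 806, 683 and 747 at d3 and 1422, 1245 and 1493 at d6, and the days did not overlap (log2 ratio 0.89, SE 0.15, adjusted p = 8.63e-05). *Il33*, for an alarmin, went against the list and read 7865, 7191 and 7220 at d3 and 2324, 1912 and 2622 at d6 (log2 ratio -1.71, SE 0.13, adjusted p = 2.05e-09). *Ptgs2*, for the inducible enzyme of prostaglandin synthesis, was chosen after its values were seen and went from 5583 ± 213 at d3 to 14740 ± 271 at d6 (log2 ratio 1.40, SE 0.073, adjusted p = 3.76e-12). *Ptx3*, for a pentraxin, was the called member among 21 acute-phase and complement genes, from 1016 ± 57.9 at d3 to 3588 ± 375 at d6. Of 32 genes of the interferon response, 0 were called.

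Of 12 endothelial markers, 10 were dim at both days and 0 were called, and *Pecam1*, *Tek*, *Tie1* and *Vwf* were below 25 in each of the 6 arrays. Of 12 blood and macrophage markers *Cd53* rose, from 54.4 to 124. *Tyrobp* fell on dim values, from 27.2 to 4.82, and lost its call with a floor of 50, without replicate 3 of d3 and without replicates 2 and 3 of d6 (adjusted p from 0.0053 to 0.00785 without these arrays). Among 23 adipocyte genes only *Klf15* was called, from 11.2 ± 9.49 at d3 to 79.5 ± 41.9 at d6, and not with a floor of 50 (log2 ratio 0.70) or without replicate 2 of d3, 1 of d6 or 2 of d6 (adjusted p from 0.00737 to 0.0103). Among 22 chondrocyte genes, 16 of them dim at both days, only *Matn3* was called, from 40.2 ± 20.6 at d3 to 5.06 ± 3.93 at d6, which is dim at both days, and with a floor of 50 its call was lost (log2 ratio -0.12, adjusted p = 0.316). *Acan*, for the aggrecan of cartilage, was below 50 in all 6 arrays. Of 16 smooth muscle genes *Mylk* rose and *Synpo2* and *Smtn* fell. The call of *Smtn* was lost with array weights (log2 ratio -0.58), without replicate 1 of d3 (-0.47) and without replicate 2 of d6 (-0.55).

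Genes of energy metabolism were mostly not called. Of 49 genes of the respiratory chain and ATP synthase, only *Cox6a2*, for a muscle form of a cytochrome oxidase subunit, rose, from 216 ± 51.9 at d3 to 887 ± 148 at d6. Of 33 genes of fatty acid oxidation and the TCA cycle, only *Acadl* fell, and without replicate 3 of d3 or of d6 its log2 ratio was short of the minimum (-0.59 in both). On the hypoxia and glycolysis list *Ero1a* and *Ndrg1* rose and *Bnip3* and *Pfkm* fell, *Pfkm* not without replicate 1 of d3 (log2 ratio -0.60). Of 32 lysosome and antioxidant genes 5 rose, among them *Hmox1* with a log2 ratio of 0.99 and *Ctsh* with 1.02. All 29 measured genes of cytosolic ribosomal proteins had a positive log2 ratio, with a median of 0.25, and 0 of them passed the minimum of 0.6 with an adjusted p under 0.005.

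**Figure D4:**
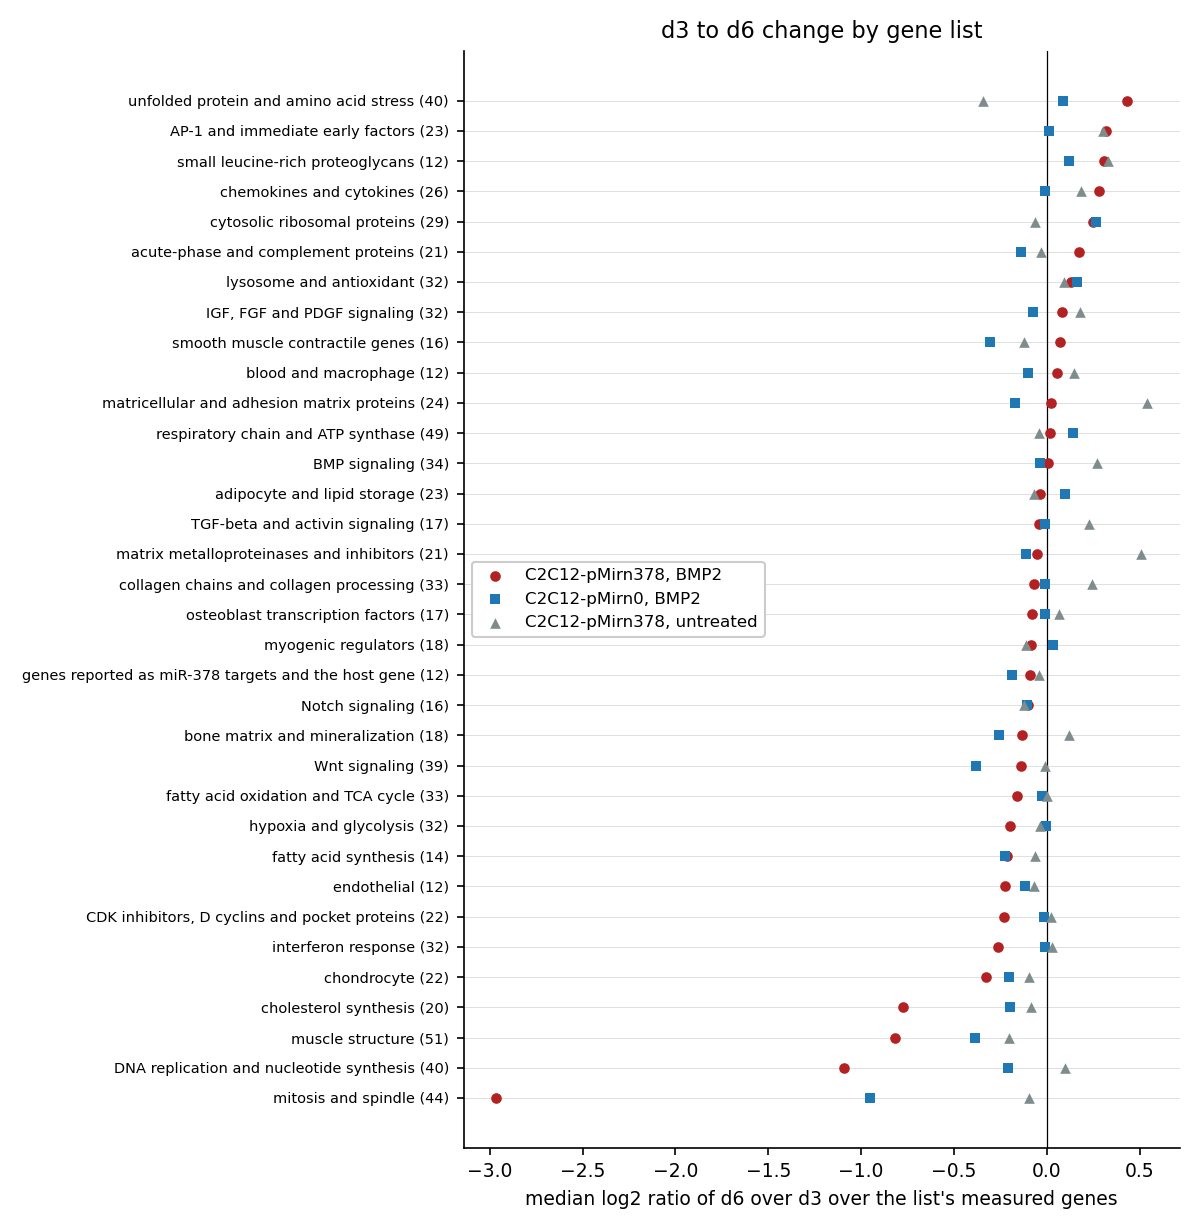
Median log2 ratio of d6 over d3 over the measured members of 34 gene lists (number of members in parentheses) in C2C12-pMirn378 cells with BMP2, control cells with BMP2 and untreated C2C12-pMirn378 cells. Mitosis has the lowest median with BMP2 in C2C12-pMirn378 cells, at -2.97, against -0.95 in control cells and -0.094 without BMP2.

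Of 12 genes reported as miR-378 targets, the host gene included, only *Npnt* was called, against 4.85% of all genes called lower. *Npnt* fell, and its change was not called different from that of control cells. The study reports significantly more *Npnt* mRNA in C2C12-pMirn378 than in control cells at d6 of osteogenic differentiation. The host gene *Ppargc1b* read 157, 136 and 111 at d3 and 165, 180.4 and 168 at d6 and was not called (adjusted p = 0.0746). *Grem1*, *Wnt5a* and *Wnt10a*, which the study selected as candidate targets, were not called either, with log2 ratios of -0.071, 1.10 and -0.26. *Wnt5a* was below 60 in all 6 arrays. In the study's reporter assays miR-378 had no significant effect on the untranslated regions of these candidates.

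To see where the change from d3 to d6 differed between the lines, the change in C2C12-pMirn378 cells was tested against that in control cells with BMP2. It was more positive for 139 of the 18194 genes (0.764%) and more negative for 228 (1.25%). Of the 543 genes that rose in C2C12-pMirn378 cells 100 were more positive, and of the 883 that fell 214 were more negative. The mitosis list held 39 of the more negative genes among its 44 members, and DNA replication held 20 among 40. For *Birc5* the difference of changes was -2.61 on the log2 scale, SE 0.15, adjusted p = 2.1e-09, and control cells had AEVs of 392 ± 52.6 and 206 ± 4.18 at d3 and d6. For *Kif23* it was -3.75 on the log2 scale, SE 0.44, adjusted p = 1.04e-05, and control cells stood at 118 ± 22.2 and 65.2 ± 35.9. At d3 both genes were higher in C2C12-pMirn378 cells, and at d6 their AEVs there, 204 and 23.0, were not above those of control cells. Muscle structure held 8 more negative members, cholesterol synthesis 3, and the stress list 11 more positive ones.
On the side of the rises, *Egr3* differed by 2.09 on the log2 scale, SE 0.14, adjusted p = 4.31e-09, with control AEVs of 578 ± 38.4 and 672 ± 39.4. *Egr1* differed by 1.45 on the log2 scale, SE 0.16, adjusted p = 4.98e-06, and for *Trib3* the difference was not called (1.36 on the log2 scale, SE 0.28, adjusted p = 0.00581). *Car6* went in control cells from 2493 ± 147 to 8942 ± 392, above the C2C12-pMirn378 AEV at both days, and the difference was 3.18 on the log2 scale, SE 0.42, adjusted p = 4.29e-05. *Cxcl12* had control AEVs of 1281 ± 70.5 and 612 ± 44.7, the opposite course to that in C2C12-pMirn378 cells (1.96 on the log2 scale, SE 0.21, adjusted p = 2.07e-06). In contrast, *Gsta2*, *Ch25h* and *Vdr* were not called as different, with differences of 0.24 (SE 0.22), 0.0026 (SE 0.25) and 0.0008 (SE 0.15) on the log2 scale. Another 39 genes had a more positive change but were not called higher at d6 in C2C12-pMirn378 cells. Likewise, 14 with a more negative change were not called lower. Among the 39, *Mgp*, *Thbs1* and *Inhbb* were called lower (log2 ratios -1.16, -1.02 and -0.60). The 39 also hold *Hp*, for haptoglobin, whose control AEVs of 92.3 ± 25.8 and 10.7 ± 3.59 are near background at d6.

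Most of these genes differed more between the lines at d3 than at d6. Of the 214 genes that fell with a more negative change, 175 had the larger line difference at d3, with a median log2 ratio of C2C12-pMirn378 over control of 1.25 at d3 and -0.245 at d6. Of the 100 genes that rose with a more positive change, 90 did, with medians of -0.902 and -0.0223. These genes were chosen by the same arrays, so the counts describe them and were not tested. All 44 genes of mitosis had the larger difference at d3 (medians 1.85 and -0.103), as had 17 of 20 cholesterol genes (0.652 and 0.0966) and 33 of 40 stress genes (-0.3 and -0.0362). Muscle structure ran the other way, with the larger difference at d3 in 8 of 51 genes and medians of -0.213 and -0.655.

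**Figure D5:**
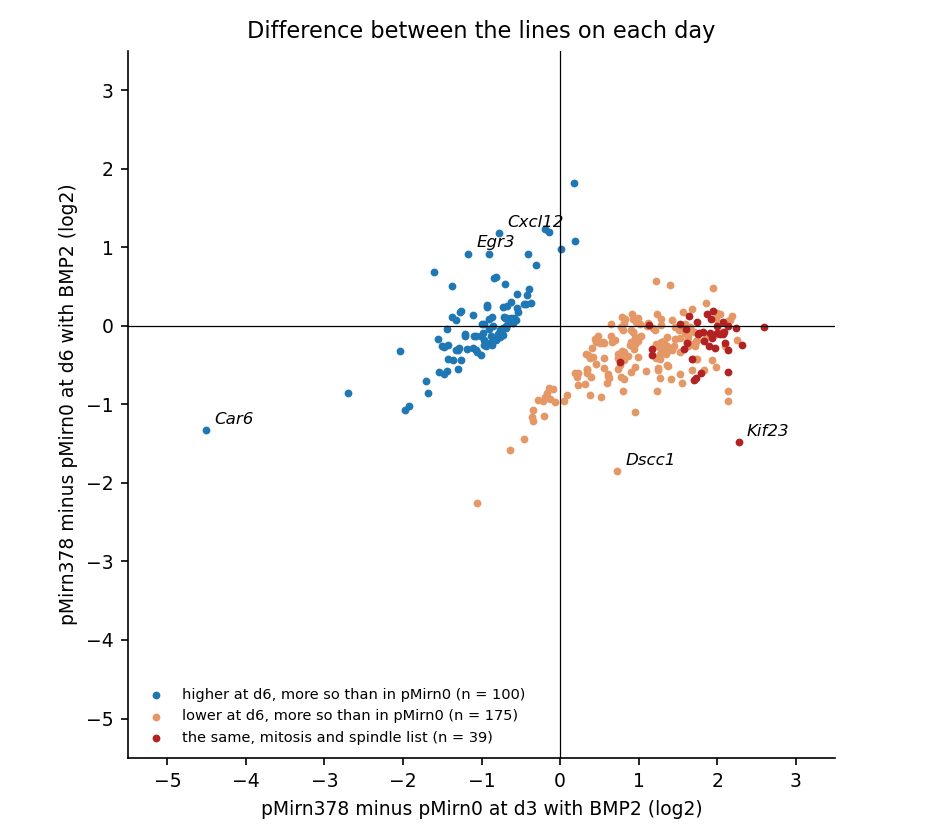
Log2 ratio of C2C12-pMirn378 over C2C12-pMirn0 with BMP2 at d3 (horizontal) and at d6 (vertical) for the 100 genes that rose and the 214 that fell with a change called different from that of control cells. The genes that fell lie mostly to the right of 0 at d3 and near 0 at d6, with medians of 1.25 and -0.245.

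The change with BMP2 was also tested against that of untreated C2C12-pMirn378 cells. It was more positive for 648 of the 18194 genes (3.56%) and more negative for 1026 (5.64%). Of the 543 genes that rose 390 were more positive, and of the 883 that fell 618 were more negative. On the mitosis list 43 of 44 genes were more negative, and for *Birc5* untreated cells had AEVs of 576 ± 108 and 593 ± 55.1 at d3 and d6 (-3.59 on the log2 scale, SE 0.15, adjusted p = 2.35e-12). On the cholesterol list 12 of 20 genes were more negative. On the stress list 21 of 40 were more positive, with *Atf3* at 686 ± 66.6 and 362 ± 44.4 in untreated cells (3.03 on the log2 scale, SE 0.19, adjusted p = 1.92e-10). *Trib3* had AEVs of 1446 ± 149 and 868 ± 271 without BMP2, and its difference was 2.87 on the log2 scale, SE 0.28, adjusted p = 1.36e-07. By contrast, the differences of *Fos* and *Ch25h* were 0.42 (SE 0.13) and 0.023 (SE 0.25) on the log2 scale and were not called, and both genes had positive log2 ratios without BMP2, of 1.21 and 2.23. Opposite calls were few, with 25 genes higher with BMP2 and lower without it and 57 the other way.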

How the data were processed

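Total RNA of 30 cultures was measured on Affymetrix Mouse Genome 430 2.0 arrays. Per the labels and the study's methods, the authors summarised the probe sets by RMA in R 2.4.1 with quantile normalization and deposited 1 linear intensity per probe set and array. The array medians (68.0 to 82.7) differ, so the deposited values do not share a single distribution, and they hold no detection calls. The lowest value is 0.0561, and 0.407% of the values lie below 1. Whether the deposited values are the output of the procedure described was not tested. The 3 arrays per group limit the precision.

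Log2 intensities, with no offset, were fitted with limma 3.58.1 in R 4.3.3 by 1 mean per group (10 groups, 30 arrays, residual degrees of freedom 20). Adjustment was by Benjamini-Hochberg over all 45101 probe sets, separately for each comparison, and calls needed an adjusted p under 0.005 and 0.6 on the log2 scale. Differences of changes were contrasts of the same fit. Tables and figures were made with Python 3.11.15, pandas 2.3.3 and matplotlib 3.10.9. On simulated data with all 45101 probe sets, for d6 against d3, 72% of 100 changes of 1 and 94% of 100 changes of 2 on the log2 scale were recovered, and 1 unchanged probe set was called. The changes were placed only in bright probe sets, and all other probe sets were left unchanged. Recovery among dim probe sets was thus not simulated.

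Of the probe sets, 34958 had 1 gene symbol in the platform annotation, 932 several and 9211 none, and only the first were named. Each gene was read from its brightest probe set, except those for which the study names one. Named were the 15 largest rises and falls without overlap and with a mean of at least 200, the 8 largest differences of changes in each direction, the 4 members of each list with the smallest adjusted p, up to 2 called members against its direction, and the genes the study names, of which the text gives a part. Cdk1, Mcm5, Pcna, Cdkn1a, Cdkn2a, Cdkn2b, Spry2, Fos, Myc, Asns, Trib3, Chac1, Slc7a11, Hspa5, Ptgs2, Bmp4, Smad6 and Acan, and the further members given only by their log2 ratio, were named after their values were seen. The members and gene lists were chosen with earlier results of these data known. Of 949 list genes 63 had no such probe set and were not analysed here. As alternatives the fit was run with a replicate block, without dim probe sets, on only the arrays compared, with trended and robust variances, array weights, median scaling, quantile normalization, an offset of 16, a floor of 50, an adjusted p of 0.05 and each array left out. Promoter sequences are those of RefSeq (GRCm38.p6).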

Additional observations from a re-analysis of the deposited data

Results flagged for a closer look

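The change from d3 to d6 in C2C12-pMirn378 cells with BMP2 differed from that in control cells with BMP2 for 139 genes in the positive and 228 in the negative direction, by limma's test of the difference itself. With the largest positive differences on the log2 scale were *Hp* (4.53), *Car6* (3.18), *Egr3* (2.09), *Cxcl12* (1.96), *Egr2* (1.88), *Cdsn* (1.85), *Angptl4* (1.81) and *Cth* (1.71). With the largest negative differences were *Kif23* (-3.75), *Dlgap5* (-3.09), *Bub1b* (-2.72), *Birc5* (-2.61), *Dscc1* (-2.58), *Ube2c* (-2.56), *Depdc1a* (-2.51) and *Cdca5* (-2.44), most of which act in mitosis.

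Against untreated C2C12-pMirn378 cells, the same test gave 648 genes in the positive and 1026 in the negative direction. The largest positive differences on the log2 scale were those of *Car6* (4.54), *Gsta2* (3.80), *Scara5* (3.46), *Diras2* (3.45), *Ppp1r3b* (3.24), *Atf3* (3.03), *Cth* (2.7) and *Cdsn* (2.69). The largest negative ones were those of *Kif23* (-4.55), *Nkd2* (-4.15), *Ndc80* (-4.005), *Gas2l3* (-3.85), *Cdca5* (-3.80), *Depdc1a* (-3.72), *Birc5* (-3.59) and *Dlgap5* (-3.53). In each case 3 arrays a group were compared, and brightest probe sets whose days did not overlap were considered.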

How the results depend on the processing

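The counts rest most on how many arrays share the estimate of the spread. With only the arrays compared, 35 probe sets were higher and 140 lower at d6 in C2C12-pMirn378 cells with BMP2, the difference from control cells was called for 62 and 130, and that from untreated cells for 519 and 865, since far fewer degrees of freedom remain. Against control cells, where 230 probe sets had a more positive and 349 a more negative change, a floor of 50 gave 350 and 468 and an adjusted p of 0.05 gave 423 and 548. Median scaling and quantile normalization moved the median log2 ratio of all probe sets from -0.0418 to -0.0045 and 0.0106, and the counts from 1089 higher and 1482 lower to 1243 and 1340, and to 1225 and 1342. Without each array in turn 927 to 1042 were higher and 1280 to 1472 lower. With the replicate number as a block (replicate block) the counts were 1100 and 1492, 231 and 344 against control cells and 1163 and 1657 against untreated cells. The same-numbered arrays of d3 and d6 correlated at 0.234, 0.0224 and 0.185 in their deviations from the group means, and those of the lines or of treated and untreated cells at d3 between 0.000743 and 0.201. At d6 treated and untreated arrays of the same number correlated at 0.166, 0.155 and 0.196, and the lines between -0.0651 and 0.0629. Arrays of different numbers correlated between -0.111 and -0.0562 for treated against untreated cells at d6. For d3 against d6 with BMP2 such arrays correlated between -0.205 and 0.0327. For treated against untreated cells at d6, every pair of the same number thus correlated more than every pair of different numbers. In the other comparisons made this did not hold. The numbers were not used as pairs in the fit that gave the calls. A replicate effect in these groups was not tested beyond the fit with the block. Of the 151 called genes that were named, 150 kept their call with the block, 109 lost it with only the 6 arrays, 5 lost it with median scaling, and 0 changed direction under any alternative. Some genes that were not called changed sign. *Bmp4* was at 0.017 on the log2 scale with median scaling and 0.019 with quantile normalization. With each array left out, log2 ratios ran from -0.91 to 0.31 for *Acan*, -0.15 to 0.072 for *Bmp4*, -0.0054 to 0.19 for *Col1a1*, -0.25 to 0.016 for *Dlx5*, -0.14 to 0.015 for *Fgfr3*, -0.21 to 0.034 for *Grem1*, -0.030 to 0.12 for *Mef2c* and -1.52 to 0.040 for *Tek*. What moved these values was not tested. Changes among dim probe sets, whose replicates spread most, are the least secure.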

Other observations

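Further gene groups were written down after their values had been seen, so their counts describe them and carry no test. The nucleolar proteins that assemble ribosomes, with RNA polymerase I, rose broadly: 57 of 78 genes were called higher and 0 lower, with a median log2 ratio of 0.76, against 2.98% of all genes called higher. The median intensity over these genes was 1731, 1782 and 1703 at d0, 906, 918 and 869 at d3 and 1323, 1474 and 1255 at d6, so that d3 was the low point of the course. In control cells with BMP2 it was 1068, 1106 and 1116 at d3 and 1433, 1412 and 1459 at d6, and in untreated cells 1080, 1069 and 1092 and 1047, 1155 and 1172. *Nop56*, a core protein of the box C/D particles that methylate ribosomal RNA, read 1469, 1307 and 1512 at d3 and 3978, 4146 and 3240 at d6, and *Ddx21*, a helicase gene of the nucleolus, read 1263, 1285 and 1424 at d3 and 3043, 3323 and 3342 at d6, both without overlap. The change differed from that of control cells for 7 of the 78 genes and from that of untreated cells for 55. With only the 6 arrays of the comparison in the fit, 1 was called.

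Of 19 genes of cytosolic aminoacyl-tRNA synthetases, which load amino acids onto tRNAs, 7 rose and 0 fell (median log2 ratio 0.50, and -0.31 in untreated cells). Of 12 tubulin genes 8 fell and 0 rose, with a median of -0.77. Of 20 glutathione transferase genes 4 rose, *Gsta2*, *Gsta4*, *Gsto1* and *Gstm1*. Of 16 carbonic anhydrase genes only *Car6* rose, whereas *Car2*, *Car5b*, *Car8* and *Car13* fell. With only the 6 arrays of the comparison in the fit, 0 genes of these 4 groups were called.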
